A study of Mus musculus with 6 samples.

Results

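The genes described here encode the core of the SIN3 corepressor, a protein complex that removes acetyl groups from histones. They are the scaffolds Sin3a and Sin3b, the deacetylases Hdac1 and Hdac2, the accessory subunits Sap30, Sap18, Suds3 and Ing2, and the histone-binding proteins Rbbp4 and Rbbp7. Members were chosen by name: every non-control probe that the array files assign to 1 of these 10 genes was taken on all 6 arrays. All 10 genes had a probe, among 34783 gene names on the array, and together they had 15 probes. Sin3b, Rbbp4 and Rbbp7 had 2 probes each, Hdac1 had 3, and the other 6 genes had 1.

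Testes were taken whole at birth (postnatal day 0) from male mice of a mixed strain, FVB.129/Sv, and 100 ng of total RNA per animal was amplified for a 1-colour Cy3 array. Every animal carried a Cre recombinase driven by Ddx4 (Vasa), a gene of germ cells. Knockout mice (KO, named VSKO in the labels) had 1 deleted and 1 floxed Sin3a allele, hemizygous mice (HEMI) had 1 deleted and 1 intact allele, and wild-type mice (WT) had the Cre and 2 intact alleles. KO and HEMI mice thus shared a deleted allele, and all 3 groups shared the Cre. Each group held 2 animals with 1 array each, and nothing was pooled. Because the Cre is driven by a germ cell gene while the RNA is from the whole organ, the signal mixes targeted germ cells with somatic cells.

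SIN3 proteins have no enzymatic activity of their own and do not bind DNA directly: their paired amphipathic helix domains are held by sequence-specific repressors such as MAD proteins, and their central region holds the catalytic subunits HDAC1 and HDAC2. SAP30, SAP18 and SUDS3 stabilise the assembly or tie it to further partners, ING2 reads methylated lysine 4 of histone H3, and the WD-repeat proteins RBBP4 and RBBP7 hold the histones and also serve the NuRD, Polycomb and chromatin assembly complexes. In the male germ line the complex is known for silencing and for the maintenance of undifferentiated germ cells.

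Probe sequences from the array files are shown for the members whose reading depends on which transcript or stretch of a gene was measured. They are written 5′ to 3′ on the strand of the transcript, with positions on mouse build mm9. The whole 60-base probe is given for 4, and 30 bases of the probe for the others. In 10 of the 15 member probes at least 1 reading frame held no stop codon. These include the 4 shown whole, and also Hdac1 probe 3 and Rbbp4 probe 2. This does not tell coding from untranslated sequence, and the share over all probes was not counted. In the Sin3b probe 1 line, capitals mark AATAAA, the hexamer of polyadenylation signals, read on the transcript's strand alone. It stands in 2 of the 15 probes, Sin3b probe 1 and Sap30, and in 10.1% of all 55681 probes on the array. In the Sap30 line it is not set in capitals.
Sin3a, chr9:56975655-56975684, plus strand, starting at base 4689 of the transcript: ttttatctgagacctgtttggctttggaat
Sin3b probe 1, chr8:75263759-75263788, plus strand, short transcript variant: ttctagttgactttctacagtAATAAAatg
Sin3b probe 2, chr8:75281185-75281244, plus strand, long transcript variant: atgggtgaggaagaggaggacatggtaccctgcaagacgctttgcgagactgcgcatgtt
Hdac1 probe 1, chr4:129193746-129193775, minus strand, starting at base 1543: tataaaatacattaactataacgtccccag
Hdac1 probe 2, chr4:129193557-129193586, minus strand, starting at base 1732: tgttaaactttttaggaggggtctgggtct
Hdac1 probe 3, chr4:129193404-129193433, minus strand, starting at base 1885: gtggaggttgatagcctagcttcctttttg
Hdac2, chr10:36713455-36713589, plus strand, 60 bases over 135 genomic bases: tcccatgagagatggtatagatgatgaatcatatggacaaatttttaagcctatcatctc
Sap30, chr8:59961819-59963869, minus strand, 60 bases over 2051 genomic bases: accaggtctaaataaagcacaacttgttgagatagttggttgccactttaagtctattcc
Rbbp4 probe 2, chr4:128984653-128984682, minus strand, starting at base 4068: tggacaagcttgttcattgttttatacatt
Rbbp7 probe 1, chrX:159212501-159212560, plus strand, starting at base 1299: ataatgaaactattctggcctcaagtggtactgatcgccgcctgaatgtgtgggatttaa

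Signal levels are log2 of the processed signal minus the log2 of the 75th percentile of the array, so 0 is that percentile. Probes bind with different strength, so a gap in level between probes is no measure of amount and is compared only across arrays. Differences between groups carry the SE of a limma fit over 34367 probes, and a probe is said to change where its Benjamini-Hochberg adjusted p over all of them is under 0.05. The 24 spots of the member probes were well above background on every array (144 of 144 array spots) and none was saturated. The scanner software called 4 of these spots outliers, and they were left out: 3 of the 60 Hdac2 spots, and the only Sap30 spot of HEMI replicate 2.

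Across the series, 59.2% to 64.53% of spots were well above background, and the 2 animals of a genotype correlated across probes at 0.986 (KO), 0.989 (HEMI) and 0.991 (WT). The 6 arrays shared a slide and a scan time. KO and HEMI arrays filled row 1 and WT arrays row 2, so slide row and genotype cannot be told apart in the comparisons with WT. Markers of germ cells (10 of 10 genes kept), Sertoli cells (10 of 10) and fetal Leydig cells (7 of 8) were present, as the tissue label says, and 9 germ cell markers were above background on all 6 arrays. The summed signal of 2 erythroid markers was 324 times the 75th percentile in KO replicate 2 and 93.1 to 113 times in the other arrays, and that of 4 skeletal muscle markers was 20.8 times in HEMI replicate 2 and 21.0 times in WT replicate 1, and 5.55 to 9.67 times in the other 4.

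None of the 15 probes of the SIN3 complex genes passed the test in any comparison. The share of all probes that passed was 0.727% for KO against WT, 0.122% for HEMI against WT and 0.0873% for KO against HEMI, so 0 of 15 is also near what the array as a whole gave. The lowest adjusted p values were 0.0889 for Hdac1 probe 2 between KO and HEMI, 0.145 for the same probe between HEMI and WT, and 0.147 for Sin3a between KO and WT (limma).

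The scaffold gene Sin3a, targeted by the deletion, read 0.61 and 0.38 in the KO testes, 0.89 and 0.89 in the HEMI testes and 1.09 and 1.11 in the WT testes. The groups did not overlap, with KO lowest, HEMI between and WT highest, and the KO animals differed from each other more than the animals of the other groups did. The KO minus WT difference was -0.60 ± 0.13 (SE), which puts the KO signal at 65.8% of WT with a 95% interval of 52.0% to 83.3%, and its adjusted p was 0.147. HEMI stood at 86.3% of WT (interval 68.2% to 109%, adjusted p = 0.584), and KO at 76.3% of HEMI (interval 60.3% to 96.5%, adjusted p = 0.565). The KO minus WT difference was -0.72 without KO replicate 1 and -0.49 without KO replicate 2, the animal with the high erythroid signal. The part of the erythroid signal in the Sin3a values was not tested. Which exons the deletion removes is not given in the labels, so whether this probe, late in the transcript, tests the deletion is not known. In RNA from a whole testis, fewer cells of a type and less RNA per cell cannot be told apart.

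The median log2 signal of the 10 germ cell markers stood in the same order as Sin3a, but 5 of the 10 did so singly, while HEMI was highest for 2 (Nanos2 and Ddx4) and lowest for 3 (Dppa3, Pou5f1 and Mael). This median was -0.11 and -0.29 in KO, 0.04 and 0.17 in HEMI and 0.42 and 0.48 in WT, and their summed signal was 24.4 to 25.4 in KO, 25.2 to 27.7 in HEMI and 26.9 to 30.0 in WT, with overlap between HEMI and each of the other groups. The KO minus WT differences of the 9 markers read above background on all 6 arrays were below 0 and none passed. The remaining marker, Nanos2, passed at -2.93 (limma adjusted p = 0.0470). The probe of Nanos2 was not well above background on either KO array, so its KO value is only a bound. The summed signal of the 7 fetal Leydig cell markers was 121 to 132 in KO, 108 to 133 in HEMI and 162 to 185 in WT. Of these 7, 5 stood below 0 in KO minus WT, where 1 passed (Cyp17a1), and 7 stood below 0 in HEMI minus WT, where none passed. The part of these markers in the Sin3a values was not tested.

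**Figure D1:**
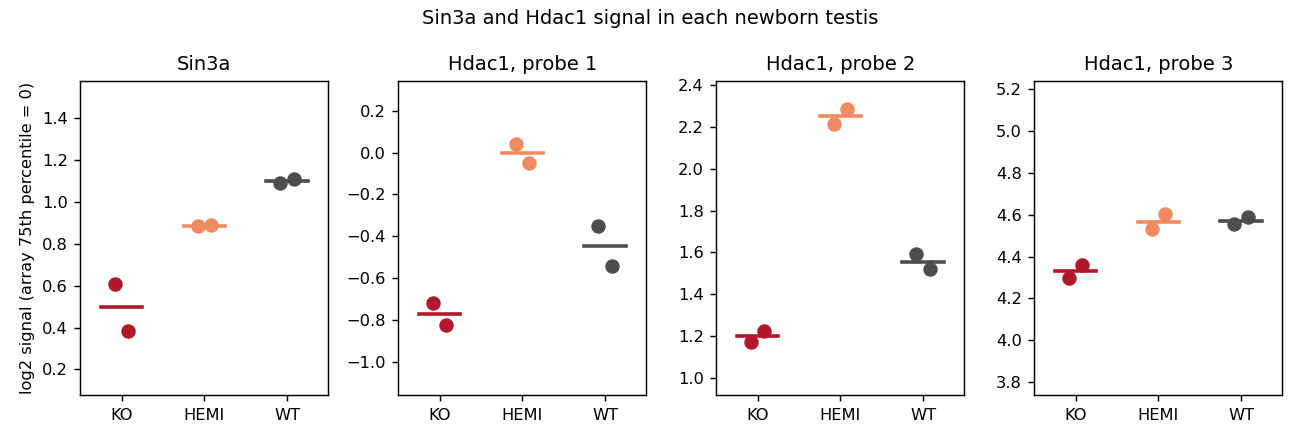
Log2 signal of the Sin3a probe and the 3 Hdac1 probes in each animal, relative to the 75th percentile of the array (vertical axis, each panel spanning the same number of log2 units). Points are animals (2 per group, KO, HEMI and WT from left to right) and bars are group means. Sin3a runs from KO at the bottom to WT at the top, while HEMI is the highest group for Hdac1 probes 1 and 2 and level with WT for probe 3.

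Sin3b, the other SIN3 scaffold, is measured by 2 probes that the array files assign to different transcript variants. Probe 1 lies in the short variant, a form described as lacking the region that binds the deacetylases, and holds, near its end, the polyadenylation hexamer shown above. Its log2 signal was 7.40 and 7.55 in KO, 7.41 and 7.53 in HEMI and 7.30 and 7.40 in WT. Both KO animals were above both WT animals, but by as little as 0.0017 log2 units, less than the gap within each group. The KO minus WT difference was 0.13 ± 0.13 (limma adjusted p = 0.699).

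Probe 2, specific to the long variant of Sin3b, was dim. Its log2 signal was -4.38 and -4.34 in KO, -4.43 and -3.88 in HEMI and -3.33 and -4.84 in WT. The WT animals spanned the whole range of the 6 arrays, a gap of 1.52, so groups overlapped in every comparison. The scanner software put the error of this probe at 11.7% to 20.9% of the signal, where most member probes had about 10%. Its KO minus WT difference was -0.27 ± 0.51 with a 95% interval of -1.57 to 1.02. It was -1.03 without WT replicate 2 and 0.48 without WT replicate 1.

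The catalytic subunit Hdac1, by its probe 2, had the smallest p value of the complex in both comparisons that involve HEMI. In KO minus WT the smallest was that of Sin3a. In 2 of the 3 Hdac1 probes the HEMI animals, not the WT animals, were highest. Probe 2 had a log2 signal of 1.17 and 1.23 in KO, 2.21 and 2.29 in HEMI and 1.59 and 1.52 in WT. HEMI was highest, KO lowest, no groups overlapped, and the gap within a group was 0.08 or less. KO minus HEMI was -1.05 ± 0.12, so KO stood at 48.3% of HEMI (95% interval 39.1% to 59.6%), with an unadjusted p of 0.000249 that ranked 95 of 34367 and an adjusted p of 0.0889 (limma). HEMI minus WT was 0.69 ± 0.12 (adjusted p = 0.145) and KO minus WT was -0.36 ± 0.12 (adjusted p = 0.280).

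Hdac1 probe 1, upstream of probe 2 in the transcript and not overlapping it, had the same order of groups. Its log2 signal was -0.72 and -0.83 in KO, 0.04 and -0.05 in HEMI and -0.35 and -0.54 in WT, again without overlap. Its KO minus HEMI difference was -0.77 ± 0.14 (limma adjusted p = 0.178), its HEMI minus WT difference 0.44 ± 0.14 (adjusted p = 0.315) and its KO minus WT difference -0.33 ± 0.14 (adjusted p = 0.363).

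Probe 3, the farthest downstream of the 3 Hdac1 probes, did not place HEMI above WT. It read 4.30 and 4.36 in KO, 4.53 and 4.60 in HEMI and 4.56 and 4.59 in WT, so that KO was lowest and HEMI and WT overlapped. KO minus WT was -0.24 ± 0.12 (limma adjusted p = 0.428) and HEMI minus WT was 0.00 ± 0.12, with a 95% interval of -0.30 to 0.29. The interval of the HEMI minus WT difference for probe 2, 0.39 to 1.00, lies above that of probe 3. The interval for probe 1, 0.10 to 0.79, overlaps that of probe 3. These intervals are not adjusted for the number of probes.

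The disagreement between Hdac1 probes can be read within each array, where no scaling enters. Probe 3 exceeded probe 2 by 3.12 and 3.13 log2 units in KO, by 2.32 and 2.32 in HEMI and by 2.96 and 3.07 in WT. Probe 3 exceeded probe 1 by 5.02 and 5.19 in KO, 4.49 and 4.65 in HEMI and 4.91 and 5.13 in WT. Both gaps were smaller in the 2 HEMI animals than in the other 4. The gaps do not tell which of the probes moved. This ratio was looked at after the values were seen and carries no test. The array files list 1 Ensembl transcript for all 3 probes. They list another for probes 1 and 2 but not for probe 3, and another for probes 1 and 3 but not for probe 2. The part of these transcripts in the gaps was not tested. Over the 9 lists of cell type markers there was none whose summed signal was higher in both HEMI animals than in the other 4. Such a sum follows mostly the brightest genes of a list, and the part of these markers in the Hdac1 values was not tested.

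Hdac2, the partner deacetylase, was printed as 10 spots per array, which gives a measure of the error within an array. Its mean log2 signal was -1.77 and -1.80 in KO, -1.76 and -1.59 in HEMI and -1.59 and -1.58 in WT. KO was below WT in both animals, and HEMI lay across the space between them, with replicate 1 near KO and replicate 2 within 0.003 of WT replicate 1. The SD between spots was 0.051 to 0.158 and the SE of an array's mean 0.017 to 0.050, so that last gap is smaller than the error of the means. KO minus WT was -0.20 ± 0.13 (limma adjusted p = 0.524), with a 95% interval of -0.52 to 0.12.

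**Figure D2:**
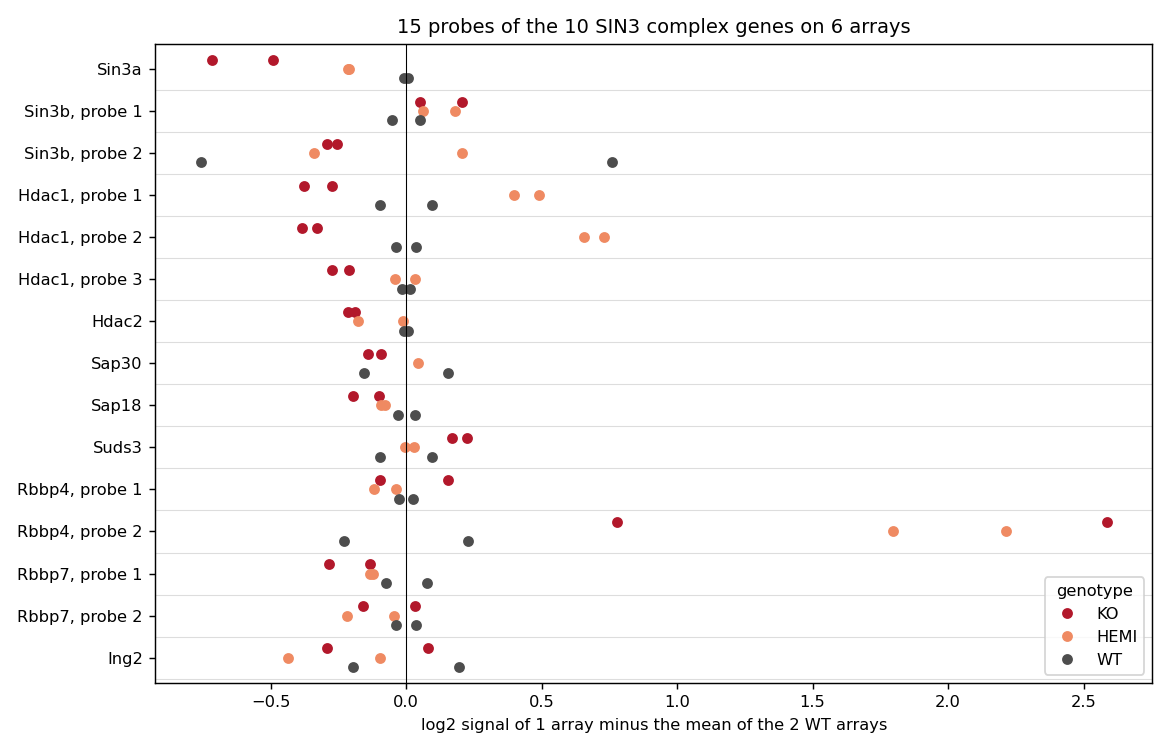
Log2 signal of each array minus the mean of the 2 WT arrays (horizontal axis) for the 15 member probes (rows), with KO, HEMI and WT points from top to bottom within a row. Most points lie within 0.5 of WT, apart from HEMI in Hdac1 probe 2, 1 KO animal in Sin3a, and the dim probes Sin3b 2 and Rbbp4 2, where animals of 1 genotype are far apart. Sap30 has 1 HEMI point.

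Differences of the accessory subunits lay between -0.27 and 0.20 log2 units over the 3 comparisons. Sap30, which links SIN3 to the deacetylases and to DNA-bound partners, had a log2 signal of -0.77 and -0.72 in KO, -0.58 in the HEMI animal with a usable spot, and -0.48 and -0.78 in WT. The WT animals enclosed both KO animals, and KO minus WT was -0.12 ± 0.17 (limma adjusted p = 0.792). The flagged Sap30 spot of HEMI replicate 2 had a processed signal of 11580 where the other arrays had 420 to 503, and with it kept, the HEMI minus WT difference would be 2.28 in place of 0.05.

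Sap18, which also joins the exon junction complex, had a log2 signal of -1.56 and -1.46 in KO, -1.45 and -1.44 in HEMI and -1.33 and -1.39 in WT. The 3 groups were in the order KO, HEMI, WT without overlap, as for Sin3a, over a range of 0.23. However, KO replicate 2 (-1.460) and HEMI replicate 1 (-1.452) were nearly level. KO minus WT was -0.15 ± 0.12, with a 95% interval of -0.45 to 0.16 (limma adjusted p = 0.622).

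Suds3, which supports dimerisation and deacetylase activity of the complex, ran the other way. It read 2.11 and 2.17 in KO, 1.98 and 1.94 in HEMI and 1.85 and 2.04 in WT. Both KO animals were above the other 4, and HEMI lay within the WT range. KO minus WT was 0.20 ± 0.13 (limma adjusted p = 0.547) and KO minus HEMI 0.18 ± 0.13 (adjusted p = 0.952).

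Ing2, the reader of methylated histone H3, overlapped between all groups. Its log2 signal was -1.02 and -1.39 in KO, -1.53 and -1.19 in HEMI and -0.90 and -1.29 in WT, with gaps within a group of 0.34 to 0.39. KO minus WT was -0.11 ± 0.23 (limma adjusted p = 0.867), with a 95% interval of -0.68 to 0.47.

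The histone chaperones Rbbp4 and Rbbp7 were each measured by a pair of probes, and for 3 of the 4 the differences stayed within 0.21 log2 units of 0. Rbbp4 probe 1 read 5.18 and 4.93 in KO, 4.90 and 4.98 in HEMI and 5.05 and 4.99 in WT, and KO minus WT was 0.03 ± 0.14 (limma adjusted p = 0.943). Rbbp7 probe 1, whose sequence is shown above, read 3.95 and 3.80 in KO, 3.97 and 3.95 in HEMI and 4.01 and 4.16 in WT, with KO minus WT at -0.21 ± 0.13 (adjusted p = 0.529). Rbbp7 probe 2 read 5.95 and 5.76 in KO, 5.70 and 5.87 in HEMI and 5.88 and 5.95 in WT, with KO minus WT at -0.06 ± 0.14 (adjusted p = 0.871). KO lay below WT in Rbbp7 probe 1 and overlapped it in Rbbp4 probe 1 and Rbbp7 probe 2.

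Rbbp4 probe 2, 2311 bases farther along the transcript than probe 1, gave a different picture at low signal. It read -1.80 and -3.61 in KO, -2.17 and -2.59 in HEMI and -4.62 and -4.16 in WT. All 4 KO and HEMI animals were above both WT animals, while the KO animals were 1.81 apart. KO minus WT was 1.68 ± 0.60 (95% interval 0.16 to 3.21, limma adjusted p = 0.304) and HEMI minus WT was 2.00 ± 0.60 (adjusted p = 0.308). The software error of this probe was 10.1% to 17.3%, the KO minus WT difference was 0.78 without KO replicate 1 and 2.59 without KO replicate 2, and with the normexp background correction it was 0.68 (HEMI minus WT 0.79). Probe 1 of the same gene did not show the difference: its intervals were -0.33 to 0.39 for KO minus WT and -0.44 to 0.28 for HEMI minus WT.

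**Figure D3:**
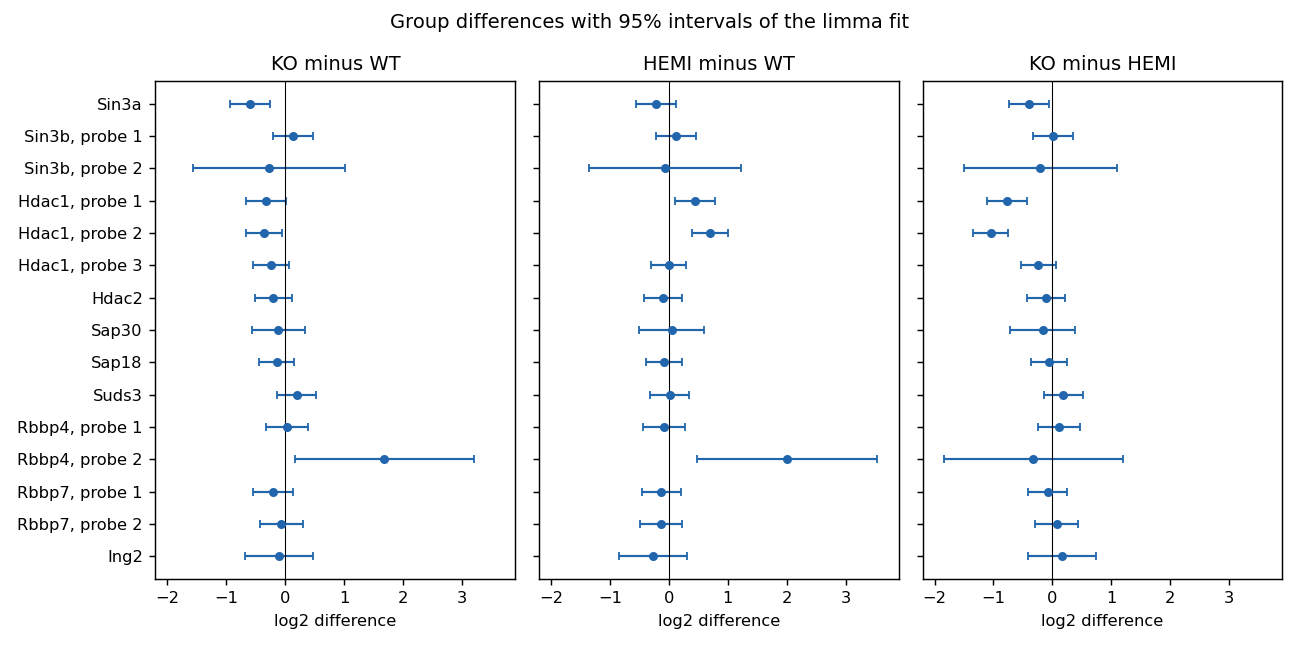
Differences in log2 signal with the 95% interval of the limma fit (horizontal axis) for the 15 member probes (rows), in 3 panels for KO minus WT, HEMI minus WT and KO minus HEMI. The intervals leave out 0 for Sin3a, Hdac1 probe 2 and Rbbp4 probe 2 in KO minus WT, for Hdac1 probes 1 and 2 and Rbbp4 probe 2 in HEMI minus WT, and for Sin3a and Hdac1 probes 1 and 2 in KO minus HEMI. They are not adjusted for the number of probes.

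Counts over the members are given here beside those over all probes, as a description. An unadjusted p under 0.05 was reached by 3 of 15 probes in each comparison, where 14.7% of all probes reached it for KO against WT, 12.3% for HEMI against WT and 7.57% for KO against HEMI. KO and WT animals did not overlap in 10 of 15 probes, against 45.7% of all probes. KO was higher in 3 of these 10 (23.0% of all probes) and lower in 7 (22.7% of all probes). For HEMI against WT this held for 10 of the 14 probes read on all arrays and for 49.2% of all probes, with HEMI higher in 4 (22.1% of all) and lower in 6 (27.1% of all). For KO against HEMI it held for 7 of 14 and for 33.1% of all probes, with KO higher in 1 (18.5% of all) and lower in 6 (14.7% of all). The median difference of the 15 probes was -0.15 for KO minus WT, -0.07 for HEMI minus WT and -0.11 for KO minus HEMI, and that of all probes was 0.00, -0.01 and 0.02. Probes of 1 gene share a target, so these counts hold 10 genes and not 15 independent measurements.

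Group means ran from KO at the lowest through HEMI to WT at the highest in 6 of 15 probes, those of Sin3a, Sin3b probe 2, Hdac1 probe 3, Hdac2, Sap18 and Rbbp7 probe 1. This order was found in 18.0% of all probes. It was reversed in 2, Sin3b probe 1 and Suds3, and in 21.2% of all probes. The 3 groups were also free of overlap, with KO lowest, for Sin3a, Hdac2 and Sap18, and for 2.44% of all probes. The nearest KO and HEMI animals were at 0.61 and 0.89 for Sin3a, but at -1.460 and -1.452 for Sap18 and -1.774 and -1.763 for Hdac2. That Hdac2 gap is smaller than the SEs of the array means concerned (0.017 and 0.022). Sap18 was read from 1 spot per array with a software error of about 10%.

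The genes whose pattern over the 6 arrays was nearest to that of Sin3a were not members of the complex. Nearness was the root mean square difference of the mean-centred log2 signal over the 6 samples, among 22352 probes with a gene symbol. The nearest 5 were Rcor2 (0.052), a CoREST corepressor that also works with HDAC1 and HDAC2, Elovl2 (0.053), an enzyme of fatty acid elongation, Dna2 (0.054), a helicase and nuclease of DNA replication, Kctd13 (0.059), an adaptor of a ubiquitin ligase, and Hnrnpa3 (0.060), an RNA-binding protein. Rcor2 read 2.24 and 2.11 in KO, 2.50 and 2.51 in HEMI and 2.69 and 2.66 in WT. The KO minus WT differences of the 5 were -0.60 to -0.47, and values near that of Sin3a follow from the choice by nearness. The measure is a description over 6 samples that share 1 slide, and it carries no test. The members nearest to Sin3a by the same measure were Hdac1 probe 3 (0.17), Rbbp7 probe 1 (0.17) and Hdac2 (0.18), and the farthest was Rbbp4 probe 2 (1.17).

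Genes that work with or beside the complex were listed by role and read with 1 probe per gene from the same fit. Over the 24399 genes read this way the median KO minus WT difference was -0.01. Of all probes, 50.2% stood above 0 in KO minus WT. None of these genes passed in any comparison (0 of 69, limma), and an unadjusted p under 0.05 was reached by 7 for KO minus WT, 4 for HEMI minus WT and 2 for KO minus HEMI, beside the 14.7%, 12.3% and 7.57% of all probes given above. Of 15 further SIN3 subunits, 10 stood above 0 in KO minus WT, with a median of 0.11. The highest were Brms1, a subunit known as a metastasis suppressor, at 0.50 ± 0.13 (limma adjusted p = 0.184), and Arid4b, a chromatin-binding subunit, at 0.36. The lowest were Tet1, a 5-methylcytosine oxidase that associates with SIN3A, at -0.36, and Arid4a at -0.31. Brms1 read 0.62 and 0.62 in KO, 0.39 and 0.56 in HEMI and 0.10 and 0.14 in WT, so both carrier groups were above WT. The median of the 10 members themselves was -0.11, with 3 above 0.

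Of 14 measured factors that recruit SIN3 to DNA, 11 stood above 0 in KO minus WT (50.2% of all probes), with a median of 0.19. Klf10, a repressor induced by TGF-beta, read 2.98 and 2.66 in KO, 2.69 and 2.27 in HEMI and 1.68 and 2.24 in WT, a KO minus WT difference of 0.86 ± 0.26 (limma adjusted p = 0.249). Its relative Klf11 stood at 0.67 ± 0.36 (limma adjusted p = 0.463), with KO and WT animals overlapping. Klf9 at -0.24 ± 0.45 and Nanog, a pluripotency factor, at -0.09 ± 0.21 were lowest. Mxi1 did not pass the filter on dim probes. Among the other deacetylases of class I, Hdac3 stood at 0.27 and Hdac8 at -0.28.

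Subunits of 2 other complexes that hold HDAC1 and HDAC2 showed small differences in both directions. For the 11 NuRD subunits the median KO minus WT difference was 0.06, from Chd3 at -0.36 and Chd5 at -0.24 to the helicase Chd4 at 0.29 and Gatad2b at 0.32. For the 7 CoREST subunits it was 0.06, with Rcor2 at -0.50 ± 0.12 (limma adjusted p = 0.175) and Phf21a at -0.08 lowest and Rcor3 at 0.30 and Hmg20b at 0.20 highest. With median scaling both KO minus WT medians were 0.03. The NuRD and CoREST lists overlap with none of the 10 members, although RBBP4 and RBBP7 also serve NuRD.

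The opposing enzymes, 10 histone acetyltransferases, had a median KO minus WT difference of 0.07. Kat2b and Kat7 stood at 0.22 each, Kat8 at -0.28 and Hat1 at -0.17. The 10 deacetylases of classes II and III had a median of 0.11, with Hdac10 at 0.47 ± 0.14 (limma adjusted p = 0.240) and Sirt6 at 0.23 highest, and Hdac9 at -0.44 ± 0.15 (adjusted p = 0.284) and Sirt1 at -0.11 lowest. In HEMI minus WT the medians were 0.19 for the further SIN3 subunits, 0.15 for the recruiting factors, 0.11 for NuRD, 0.02 for CoREST, 0.13 for the acetyltransferases and -0.04 for classes II and III, beside -0.02 for all genes and -0.08 for the members. Each member enters this median with its probe of highest mean. In HEMI minus WT this leaves out Hdac1 probes 1 and 2 (0.44 and 0.69) and Rbbp4 probe 2 (2.00). It also leaves out Sin3b probe 2 (-0.07) and Rbbp7 probe 1 (-0.13). The KO minus WT and HEMI minus WT comparisons use the same WT arrays, so they do not repeat each other independently.

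**Figure D4:**
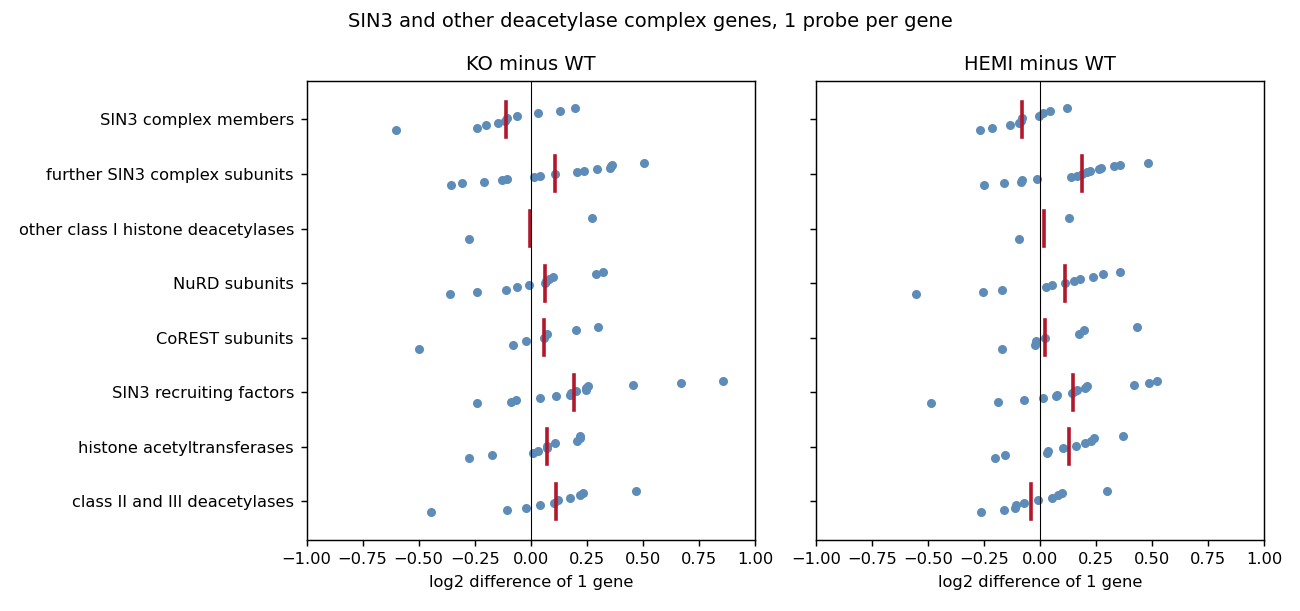
KO minus WT (left) and HEMI minus WT (right) differences in log2 signal (horizontal axis) for genes of the SIN3 complex and of related complexes, 1 probe per gene. Points are genes and red bars are list medians. Each gene is shown by its probe of highest mean, which is probe 3 for Hdac1 and probe 1 for Rbbp4. The 10 members are centred slightly below 0 with Sin3a lowest in KO minus WT, and the further SIN3 subunits and recruiting factors are centred above 0. In KO minus WT the NuRD, CoREST, acetyltransferase and class II and III deacetylase lists are also above 0 (medians 0.06 to 0.11). The other class I deacetylases are at -0.003. No gene shown passed the test.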

How the data were processed

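Whole-testis RNA of 6 newborn mice (KO, HEMI and WT, 2 animals each) was read on 6 Agilent 1-colour arrays. The deposited array files hold a processed intensity per spot, background-subtracted by the scanner software, beside the spot's mean intensity and its local background. Per the file headers the 0 or 1 flags (outlier, saturated, well above background) are quality calls, a unit of their own. Feature Extraction is version 10.7.3.1 per the file headers and 8.5.1.1 per the submitters' processing notes. The authors' series table holds an intensity that equals each array's processed signal over its median (every column has a median of 1). The scale is linear and not centred by gene.

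From the deposited intensity, log2 values minus the log2 75th percentile of each array's non-control spots were computed. Outlier spots were dropped, the spots of 1 probe averaged, and probes kept (34367 of 55681) where both arrays of any group were well above background. All 15 member probes passed. Groups were compared with limma 3.58.1 (R 4.3.3) in a fit of all 6 arrays with 1 mean per genotype, 3 residual and 2.24 prior degrees of freedom, Benjamini-Hochberg adjustment over all kept probes, threshold 0.05. The fit was tested on simulated data. The precision is limited by 2 animals per group. The labels name biological replicates, and the 2 replicate numbers were not taken to pair animals: deviations of same-numbered arrays correlated at -0.0085 to 0.0128 across probes.

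Current gene names came from a RefSeq table (GRCm38.p6), which matched 26756 probes by their own accession, 102 by another accession, 3756 by symbol and 623 by synonym; 24444 kept the name of the file. Pathway and marker genes were read with the probe of highest mean. The text names every member probe, the 5 genes nearest to Sin3a, and of each pathway list of 5 or more genes those that passed with the 2 highest and 2 lowest KO minus WT differences. A further list of corepressor subunits is not reported here. Members and lists were chosen with earlier results of these data known. Marker lists were germ cell, Sertoli, fetal Leydig, peritubular myoid, interstitial progenitor, endothelium, macrophage, erythroid and skeletal muscle; KO minus WT medians of those not given in the results were 0.04 for Sertoli, -0.89 for fetal Leydig (Cyp17a1 passed, -1.40, adjusted p = 0.0489), 0.10 for myoid, 0.12 for progenitor, -0.24 for endothelium, 0.15 for macrophage, 0.64 for erythroid and -0.93 for skeletal muscle genes. Alternatives were 17 settings of scaling, background, filter, probe choice, prior, pairing and left-out animals, and 1 added after the data were seen (outlier spots kept).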

Additional observations from a re-analysis of the deposited data

How the results depend on the processing

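No member probe passed in KO minus WT or HEMI minus WT under any of the 17 other settings or with outlier spots kept. In KO minus HEMI, 1 passed with the normexp background correction and 1 with an intensity-dependent prior, both times Hdac1 probe 2 (-1.004, adjusted p = 0.0378, and -1.05, adjusted p = 0.0357). Over all settings its adjusted p ran from 0.0357 to 0.310 and its difference from -1.12 to -1.004; the cause was not tested. Leaving out 1 animal at a time, the Sin3a difference ran from -0.717 to -0.490 for KO minus WT and from -0.504 to -0.277 for KO minus HEMI, lowest without KO replicate 1 and highest without KO replicate 2, and from -0.22 to -0.20 for HEMI minus WT. Its KO minus WT adjusted p was 0.0792 to 0.386 over all settings. Sap30 has no HEMI value without HEMI replicate 1.

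With the replicate block, Sin3a stood at -0.603 (adjusted p = 0.208), -0.212 (0.651) and -0.391 (0.681) for KO minus WT, HEMI minus WT and KO minus HEMI, and 0 member probes passed. Over the whole array the probes that passed numbered 250 for KO minus WT, 42 for HEMI minus WT and 30 for KO minus HEMI, and 42, 8 and 0 with the block, where 2573 reached an unadjusted p under 0.05 in KO minus HEMI. Other settings gave 0 to 405, 0 to 170 and 0 to 80. Many settings leave a difference as it is by construction (filters, priors, an animal of the third group). Of the member differences that took another value, with the authors' series table left out because it repeats median scaling, 97 of 105 kept their sign for KO minus WT, 95 of 106 for HEMI minus WT and 94 of 106 for KO minus HEMI. Sin3b probe 2 and Rbbp4 probe 2 were above background but had the largest software error of the members, which limits both.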
